A study of Mus musculus with 16 samples.

Results

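Type I interferon-stimulated genes are the antiviral and regulatory genes that cells switch on when type I interferon binds its receptor. A list of 50 of them was followed here by matching the gene identifiers of the deposited count table to mouse gene symbols. The matching used no measured value, but the list was chosen with earlier results of these data known. All 50 were among the 50600 genes of the table, and all 50 were among the 16345 genes with enough counts to be tested. Polyadenylated RNA was sequenced in bulk from cells sorted by fluorescence from male mice aged 13 to 14 weeks, in 16 libraries, 4 in each of 4 groups. The first group was CD11c-eYFP cells of the ischemic hemisphere, called brain CD11c cells here, from Tg(Itgax-Venus)1Mnz mice, where a yellow fluorescent protein is driven by the promoter of Itgax. The second was CX3CR1-positive microglia of the ischemic hemisphere, called ischemic microglia, from CX3CR1CreERT2:Rosa26-tdT mice, where an inducible Cre under the Cx3cr1 promoter goes with a tdTomato reporter. The third was CD11c-eYFP cells of the spleen, called spleen CD11c cells, from the Itgax-Venus line. The fourth was CX3CR1-positive microglia of control brain, called control microglia, from the tdTomato line.

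Mouse line therefore changed with the sorted population, and the 2 cannot be told apart between microglia and CD11c cells. CD11c, encoded by Itgax, is an integrin subunit of dendritic cells that some macrophages also carry, so the reporter marks more than 1 cell type. How long after ischemia the cells were sorted, and whether the spleens came from mice with ischemia, is not stated in the sources used here. Whether libraries of a group are separate animals is not stated either, so a p-value measures only the spread between these libraries, which may be technical. Brain CD11c replicate 1 and spleen replicate 4, of the same line, carry the number 11 in their titles, and whether that number marks 1 mouse is not stated.

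Type I interferons, interferon beta and the interferon alpha family, are secreted by cells that sense foreign or misplaced nucleic acid. They bind the IFNAR1 and IFNAR2 receptor, whose kinases JAK1 and TYK2 phosphorylate STAT proteins, and STAT2 with IRF9 is part of a factor that binds interferon-stimulated response elements in DNA. The genes it switches on degrade viral RNA, block its translation, modify proteins with the ubiquitin-like protein ISG15, and feed back on sensing and signalling. In brain, interferon-stimulated genes are known to be expressed by a subset of microglia in injury, infection and ageing.

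Depth was 31.57 to 48.25 (units of 1e6) counts per library, so 1 count per 1e6 (CPM) stood for at least 31.57 counts before scaling. The sorted populations carried their own markers and those of other cells. Summed over 10 microglia markers, levels were 12007 to 13344 CPM in brain CD11c cells, 30534 to 38163 CPM in ischemic microglia, 1140 to 1632 CPM in spleen CD11c cells and 39340 to 45356 CPM in control microglia, where "CPM" is scaled by TMM factors. Summed over 10 conventional dendritic cell markers, levels were 5115 to 13390.0 CPM, 122 to 287 CPM, 4089 to 7131 CPM and 324 to 641 CPM in the same groups. Summed over 7 monocyte markers, they were 1563 to 6248 CPM, 1276 to 2714 CPM, 726 to 835 CPM and 131 to 250 CPM. Immunoglobulin genes took 7.70% to 21.7% of spleen counts and at most 0.0653% elsewhere, and 6 B cell markers summed to 2743 to 3774 CPM in spleen CD11c cells against at most 91.5 CPM in the other groups.

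Some libraries stood apart. Brain CD11c replicates 1 and 2 carried 6248 and 5149 CPM of monocyte markers, and replicates 3 and 4, whose titles follow another style, carried 2406 and 1563 CPM. Conventional dendritic cell markers had the reverse order. They summed to 5115 and 7058 CPM in replicates 1 and 2, and to 11166 and 13390.0 CPM in replicates 3 and 4. The mean log2 CPM of the 50 genes was 3.76 in control microglia replicate 1 and 4.34 to 4.46 in the other control libraries. It was 5.73 in spleen CD11c replicate 1 and 5.03 to 5.33 in the other spleen libraries. Counts that rest on these libraries are given with and without them. In bulk RNA, fewer cells of a type and less RNA per cell cannot be told apart.

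Stretches of promoter are shown for 8 of the genes, picked as examples with their levels and matches known, to show the letters of the motif in genes of several roles and windows without it. Promoter windows of 250 bases before and 50 bases after the annotated start were taken from RefSeq on GRCm38.p6 and matched 38 of the 50 genes in 45 windows. The motif searched was GAAANNGAAA on both strands, the core of the interferon-stimulated response element, and it stood in a window of 19 of the 38 genes against 3.99% of all 27025 genes with a window. The first match lay before the start in 16 of the 19, from 18 to 188 bases upstream, and after the start in Ifih1, Ddx58 and Eif2ak2. A longer form, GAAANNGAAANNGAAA, which contains the first motif, stood in windows of Isg15, Oas1a, Oas1g and Bst2 (10.5% of 38, against 0.133% of all genes). The core of the gamma-activated sequence, TTCNNNGAA, stood in windows of 6 of the 38 (15.8%, against 9.55%). A match describes letters in a window and does not show that a factor binds there.

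The 150 bases before the start are printed 5′ to 3′ on the coding strand, with matches to GAAANNGAAA or its reverse complement TTTCNNTTTC in capitals. Isg15 (chr4:156200819-156200968, minus strand), Ifit1 (chr19:34640739-34640888, plus strand), Rsad2 (chr12:26456453-26456602, minus strand), Oas1a (chr5:120907526-120907675, minus strand) and Bst2 (chr8:71537473-71537622, minus strand) were among the genes higher in ischemic microglia than in control microglia. Ifi203 (chr1:173942493-173942642, minus strand, an alternative start) was the only member that was lower there, and it holds a match as well.
Isg15: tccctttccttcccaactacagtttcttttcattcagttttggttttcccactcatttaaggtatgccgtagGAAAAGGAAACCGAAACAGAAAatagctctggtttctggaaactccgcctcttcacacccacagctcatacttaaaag
Ifit1: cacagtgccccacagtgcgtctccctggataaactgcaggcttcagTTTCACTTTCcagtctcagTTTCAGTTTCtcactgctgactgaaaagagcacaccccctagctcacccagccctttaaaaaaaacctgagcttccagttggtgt
Rsad2: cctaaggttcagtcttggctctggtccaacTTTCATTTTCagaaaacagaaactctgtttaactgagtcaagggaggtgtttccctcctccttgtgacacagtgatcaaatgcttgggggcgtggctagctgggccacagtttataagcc
Oas1a: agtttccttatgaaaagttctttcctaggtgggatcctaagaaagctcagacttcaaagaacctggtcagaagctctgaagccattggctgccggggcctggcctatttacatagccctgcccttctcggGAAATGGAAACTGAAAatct
Bst2: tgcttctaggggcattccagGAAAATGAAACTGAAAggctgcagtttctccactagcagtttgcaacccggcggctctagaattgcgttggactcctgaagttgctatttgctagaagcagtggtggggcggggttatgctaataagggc
Ifi203: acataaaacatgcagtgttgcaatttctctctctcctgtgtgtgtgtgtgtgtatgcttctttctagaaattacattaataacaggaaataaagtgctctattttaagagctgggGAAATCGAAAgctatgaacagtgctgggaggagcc
Samd9l (chr6:3399572-3399721, minus strand) and Helz2 (chr2:181242028-181242177, minus strand) hold no match to GAAANNGAAA in these windows. Both were higher in ischemic than in control microglia, and both, like Ifi203 with its match, had their highest mean in spleen CD11c cells, so these examples do not set levels against matches.
Samd9l: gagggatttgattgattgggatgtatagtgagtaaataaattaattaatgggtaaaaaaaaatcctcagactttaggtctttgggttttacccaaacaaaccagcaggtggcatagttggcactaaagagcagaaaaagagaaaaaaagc
Helz2: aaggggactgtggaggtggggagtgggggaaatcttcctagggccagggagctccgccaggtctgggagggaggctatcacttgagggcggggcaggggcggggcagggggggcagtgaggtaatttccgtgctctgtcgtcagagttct
Counted from the 5′ end, the first match began 20 bases upstream of the start in Oas1a, 35 in Ifi203, 78 in Isg15, 104 in Ifit1, 120 in Rsad2 and 130 in Bst2. Windows were not used here for Dhx58, Parp14, Zbp1, Ifi204, Ly6e, Parp9, Usp18, Ifi27l2a, Mx2, Rtp4, Oas2 and Mx1.

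Ischemic microglia were compared with control microglia of the same mouse line. Of the 50 genes, 49 rose and 1, Ifi203, fell, and 41 rose by 2-fold or more. All 4 ischemic libraries lay above all 4 control libraries in the 49 genes that rose. The median change of the 50 genes was a log2 difference of 2.12, or 4.35-fold, against -0.05 over all genes tested. Over all 16345 genes 35.7% were called, 17.7% higher and 18.0% lower, with 7.53% higher and 5.47% lower by 2-fold or more, and 19.9% with every ischemic library above every control library. Calls are those of edgeR's quasi-likelihood test at a Benjamini-Hochberg adjusted p under 0.05. That type I response genes were higher in this comparison was known when the list was chosen, so the count describes the members and is no independent support. Monocyte markers summed to 1276 to 2714 CPM in ischemic microglia and 131 to 250 CPM in control microglia. Of the 7 markers, 2 were called higher, 1 lower and 4 not called, and their part in the result was not tested.

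**Figure D1:**
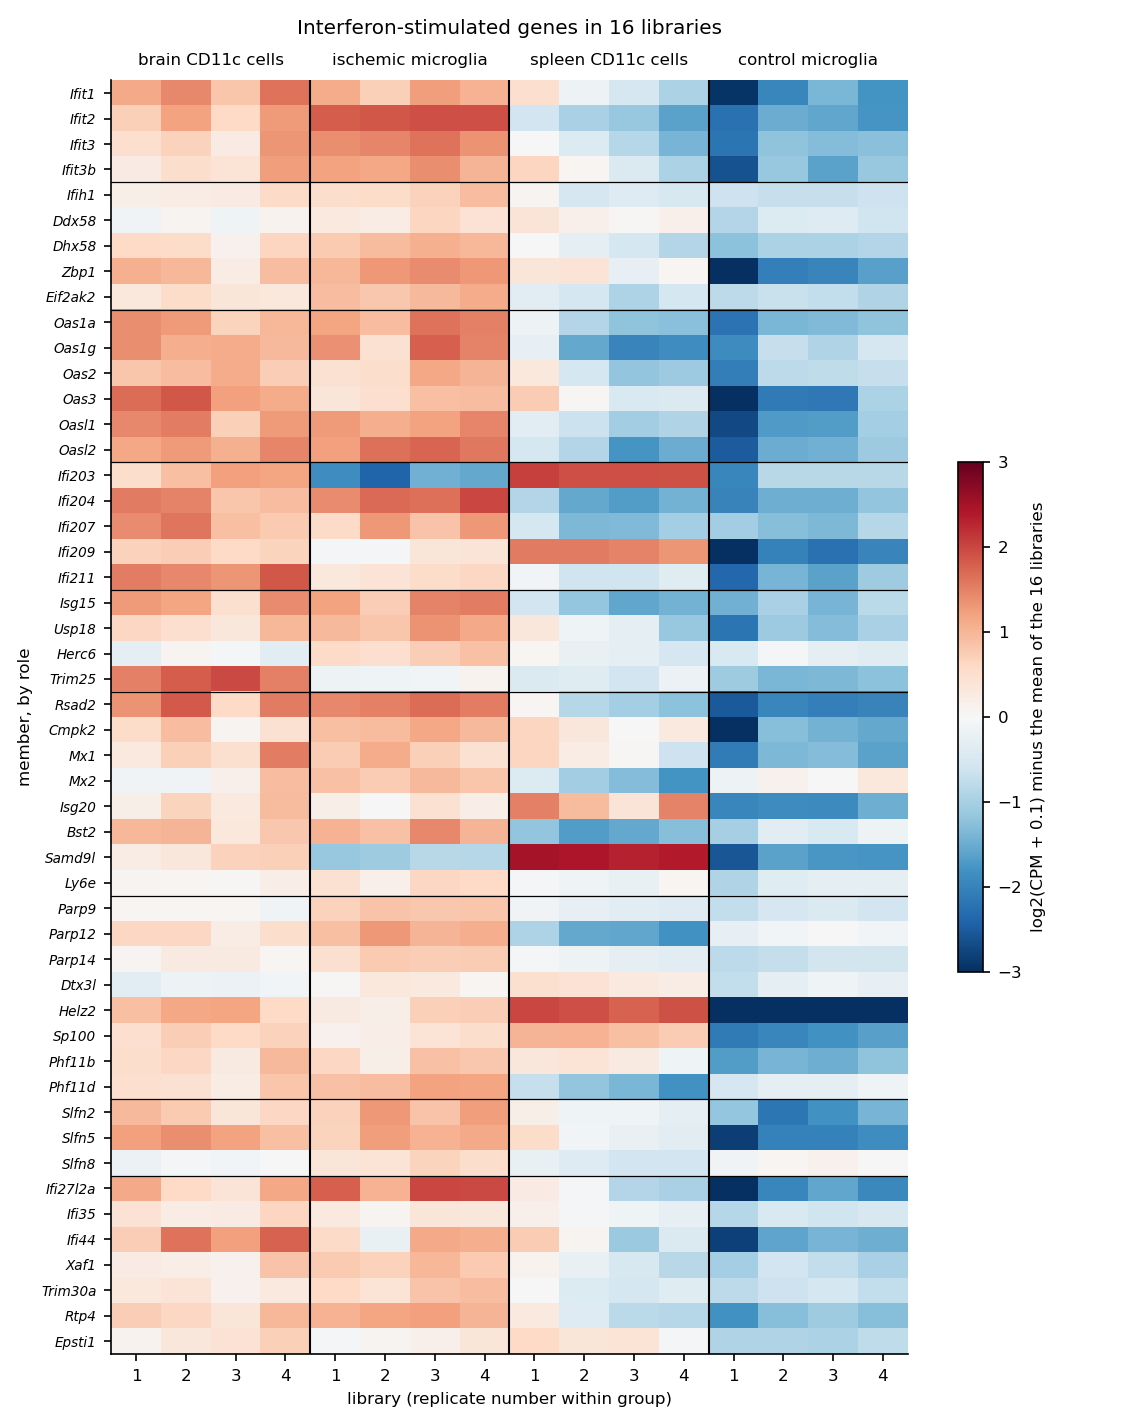
Levels of the 50 genes (rows, ordered by role) in the 16 libraries (columns, in the order brain CD11c cells, ischemic microglia, spleen CD11c cells, control microglia), as log2(CPM + 0.1) minus the mean of the gene over all 16 libraries, with colours ending at -3 and 3. Control microglia form a block below the mean in nearly every row, and Helz2, Samd9l, Ifi203 and Ifi209 are highest in the spleen libraries.

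The IFIT family binds foreign RNA and restricts its translation, and all 4 of its measured members rose, by a median log2 difference of 2.96. Ifit2 was the most abundant, with 171, 175, 185 and 185 CPM in ischemic microglia, against 10.2, 17.1, 16.4 and 13.98 CPM in control microglia. The ischemic libraries lay within a narrow range far above every control library (log2 difference 3.63 ± 0.22, SE; edgeR adjusted p = 2.73e-08). Ifit1 rose by 3.01, Ifit3 by 2.92 and Ifit3b by 2.78 log2 units. Ifit3 and Ifit3b share 51.2% and 45.0% of their 50-base transcript words with other genes, chiefly with each other, so how the authors' counting divided reads between them is uncertain.

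All 5 nucleic acid sensors rose, by a median log2 difference of 1.73. Eif2ak2 (PKR), a kinase that halts translation when it binds double-stranded RNA, had 117, 108, 121 and 133 CPM in ischemic microglia, against 35.7, 39.0, 37.0 and 33.1 CPM in control microglia (log2 difference 1.73 ± 0.12, SE; edgeR adjusted p = 4.93e-08). Zbp1, a sensor of Z-form nucleic acid that can start necroptosis, had the largest change of the group, with 94.4 ± 11.7 CPM in ischemic microglia and 9.06 ± 3.47 CPM in control microglia (SD, n = 4 each; log2 difference 3.38). The RNA helicases Ifih1 (MDA5), Ddx58 (RIG-I) and Dhx58 (LGP2) rose by 1.35, 0.97 and 1.95 log2 units.

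The OAS family includes enzymes that make oligoadenylates, which activate the nuclease RNase L. All 6 members listed here rose, by a median log2 difference of 2.73. Oasl2, an OAS-like protein with ubiquitin-like domains, was the most abundant, with 138, 184, 196 and 175 CPM in ischemic microglia, against 10.2, 20.8, 21.7 and 27.7 CPM in control microglia. Control replicate 1 was the lowest library, and no library of one group reached the other (log2 difference 3.11 ± 0.29, SE; edgeR adjusted p = 1.99e-06). Oasl1, its relative, rose by 2.96, Oas1a by 2.83, Oas3 by 2.62, Oas1g by 2.31 and Oas2 by 1.80 log2 units. Oas1a and Oas1g share 57.6% and 45.7% of their 50-base words with other genes, so their separate counts are uncertain.

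The Ifi200 family encodes nuclear proteins with DNA-binding HIN domains or with pyrin domains, and it was the role group in which a member fell. Ifi204, a DNA sensor regarded as a mouse counterpart of human IFI16, rose by 3.22 ± 0.23 log2 units (SE; edgeR adjusted p = 1.05e-07). Ifi209 rose by 2.44, Ifi207, the most abundant of the 5, by 2.16 and Ifi211 by 2.07 log2 units. Ifi203 (chr1:173920407-173942672) had 9.92, 6.83, 13.4 and 12.6 CPM in ischemic microglia, against 9.40, 20.4, 20.6 and 20.6 CPM in control microglia. Control replicate 1 lay within the ischemic range and the other 3 control libraries lay above it (log2 difference -0.73 ± 0.24, SE; edgeR adjusted p = 0.026).

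The fall of Ifi203 was not called in 8 of the 14 alternatives, with adjusted p of 0.0551 to 0.0733. These were the fits without a filter on low counts, by limma-voom, on only the 2 groups, and without control replicate 2, 3 or 4 or ischemic replicate 1 or 2. Ifi203 lies near Ifi211 (chr1:173896345-173913046) on chromosome 1, shares 12.2% of its 50-base words with other genes, and overlaps Mndal by 37 bases. Ifi211 shares 72.8% of its words, chiefly with Ifi205, and Ifi209 shares 33.7%, chiefly with Ifi214. Ifi204 shares 20.0%, chiefly with Ifi211. The sources used here do not say how reads that fit several of these genes were counted.

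All 4 genes of the ISG15 system rose, by a median log2 difference of 1.79. Isg15, the ubiquitin-like modifier itself, had 90.9, 65.7, 111 and 115 CPM in ischemic microglia, against 14.5, 20.1, 15.1 and 22.8 CPM in control microglia. Every ischemic library lay above every control library (log2 difference 2.404 ± 0.26, SE; edgeR adjusted p = 6.72e-06). Usp18, which removes ISG15 from proteins and restrains the receptor, rose by 2.42 log2 units. The ligases Trim25 and Herc6, the second being the main ISG15 ligase in mouse, rose by 1.18 and 0.97.

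All 8 genes placed as other antiviral effectors rose, by a median log2 difference of 1.80. Rsad2 (viperin), an enzyme that makes a chain-terminating nucleotide, had 74.7, 78.7, 87.7 and 79.9 CPM in ischemic microglia, against 4.70, 6.99, 6.54 and 6.73 CPM in control microglia. The ischemic libraries exceeded every control library by a wide margin (log2 difference 3.68 ± 0.29, SE; edgeR adjusted p = 3.78e-07). Cmpk2, a mitochondrial nucleotide kinase that neighbours Rsad2 on chromosome 12, rose by 2.70 log2 units.

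Mx1, an antiviral GTPase, rose by 2.35 log2 units, the exonuclease Isg20 by 2.04, the virion tether Bst2 by 1.56 and Samd9l, which restricts viral translation, by 0.91. Ly6e, a membrane-anchored protein that affects viral entry, was the most abundant member in CPM in every group, with 2118, 1723, 2389.8 and 2343 CPM in ischemic microglia, against 833, 1206, 1280.0 and 1262 CPM in control microglia (log2 difference 0.90 ± 0.14, SE; edgeR adjusted p = 0.000164). Its lowest ischemic library lay above its highest control library. Mx2, annotated as a polymorphic pseudogene, rose by 0.79 ± 0.25 log2 units (SE; edgeR adjusted p = 0.023). That call was lost with library totals and without control replicate 1 or 3 or ischemic replicate 3 (adjusted p 0.0551 to 0.0718).

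All 8 genes of the PARP, DTX3L and nuclear regulator group rose, by a median log2 difference of 1.35. Helz2, a helicase and coactivator of nuclear receptors, had the largest change of the 50 genes, with 105, 97.1, 143 and 143 CPM in ischemic microglia, against 7.95, 7.09, 8.88 and 10.3 CPM in control microglia. Even the lowest ischemic library was many times the highest control library (log2 difference 3.84 ± 0.17, SE; edgeR adjusted p = 7.82e-10). Parp14, an ADP-ribosyltransferase, was the most abundant in ischemic microglia, with 269.9, 334, 319 and 324 CPM in ischemic microglia, against 112, 118, 130.3 and 131 CPM in control microglia, and the groups did not overlap (log2 difference 1.35). Sp100, a nuclear body protein, rose by 2.20 and the PHD finger genes Phf11b and Phf11d by 2.09 and 1.34 log2 units. Phf11b shares 47.0% of its 50-base words with other genes, chiefly with Phf11a, so its count is uncertain. Parp9 and its partner ligase Dtx3l rose by 1.35 and 0.52 and the ADP-ribosyltransferase Parp12 by 1.19 log2 units. Parp9 and Dtx3l overlap by 458 bases on opposite strands, and the sources used here do not give the strand setting of the counting.

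All 3 Schlafen genes rose, by a median log2 difference of 2.64. Slfn2, known in mouse for holding T cells and monocytes in quiescence, had 354, 538, 398 and 521 CPM in ischemic microglia, against 98.0, 48.4, 61.5 and 83.5 CPM in control microglia, with no overlap between the groups (log2 difference 2.64 ± 0.21, SE; edgeR adjusted p = 3.17e-07). Slfn5 rose by 3.19 log2 units, while Slfn8 rose by 0.48, the smallest rise of the 49. Slfn8 shares 14.6% of its 50-base words with other genes, chiefly with Slfn10-ps.

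The remaining 7 interferon-induced genes all rose, by a median log2 difference of 1.63. Ifi27l2a, a small membrane protein, had 292, 174, 338 and 334 CPM in ischemic microglia, against 10.5, 21.8, 28.9 and 22.1 CPM in control microglia. The lowest ischemic library held several times the level of the highest control library (log2 difference 3.77 ± 0.36, SE; edgeR adjusted p = 2.76e-06). Trim30a, which in mouse dampens Toll-like receptor signalling, was the most abundant in CPM, with 285, 254, 345 and 363 CPM in ischemic microglia, against 111, 124, 132 and 113 CPM in control microglia, and it rose by 1.38 log2 units. Ifi44 rose by 2.51, the receptor transporter Rtp4 by 2.46, the cell death regulator Xaf1 by 1.63, Epsti1 by 1.03 and Ifi35 by 0.87 log2 units. Rtp4 shares 11.6% of its 50-base words with Gm45338, which lies on the same strand and overlaps it by 296 bases.

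Levels between genes were compared as CPM per kilobase of merged exon. On this scale Ly6e and Ifi27l2a led in brain CD11c cells, at 437 and 331 CPM per kilobase, followed by Bst2 at 264. In ischemic microglia Ifi27l2a stood at 615, Ly6e at 566, Bst2 at 325, Slfn2 at 272 and Isg15 at 127 CPM per kilobase. Ly6e led in spleen CD11c cells and in control microglia, at 386 and 303 CPM per kilobase.

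**Figure D2:**
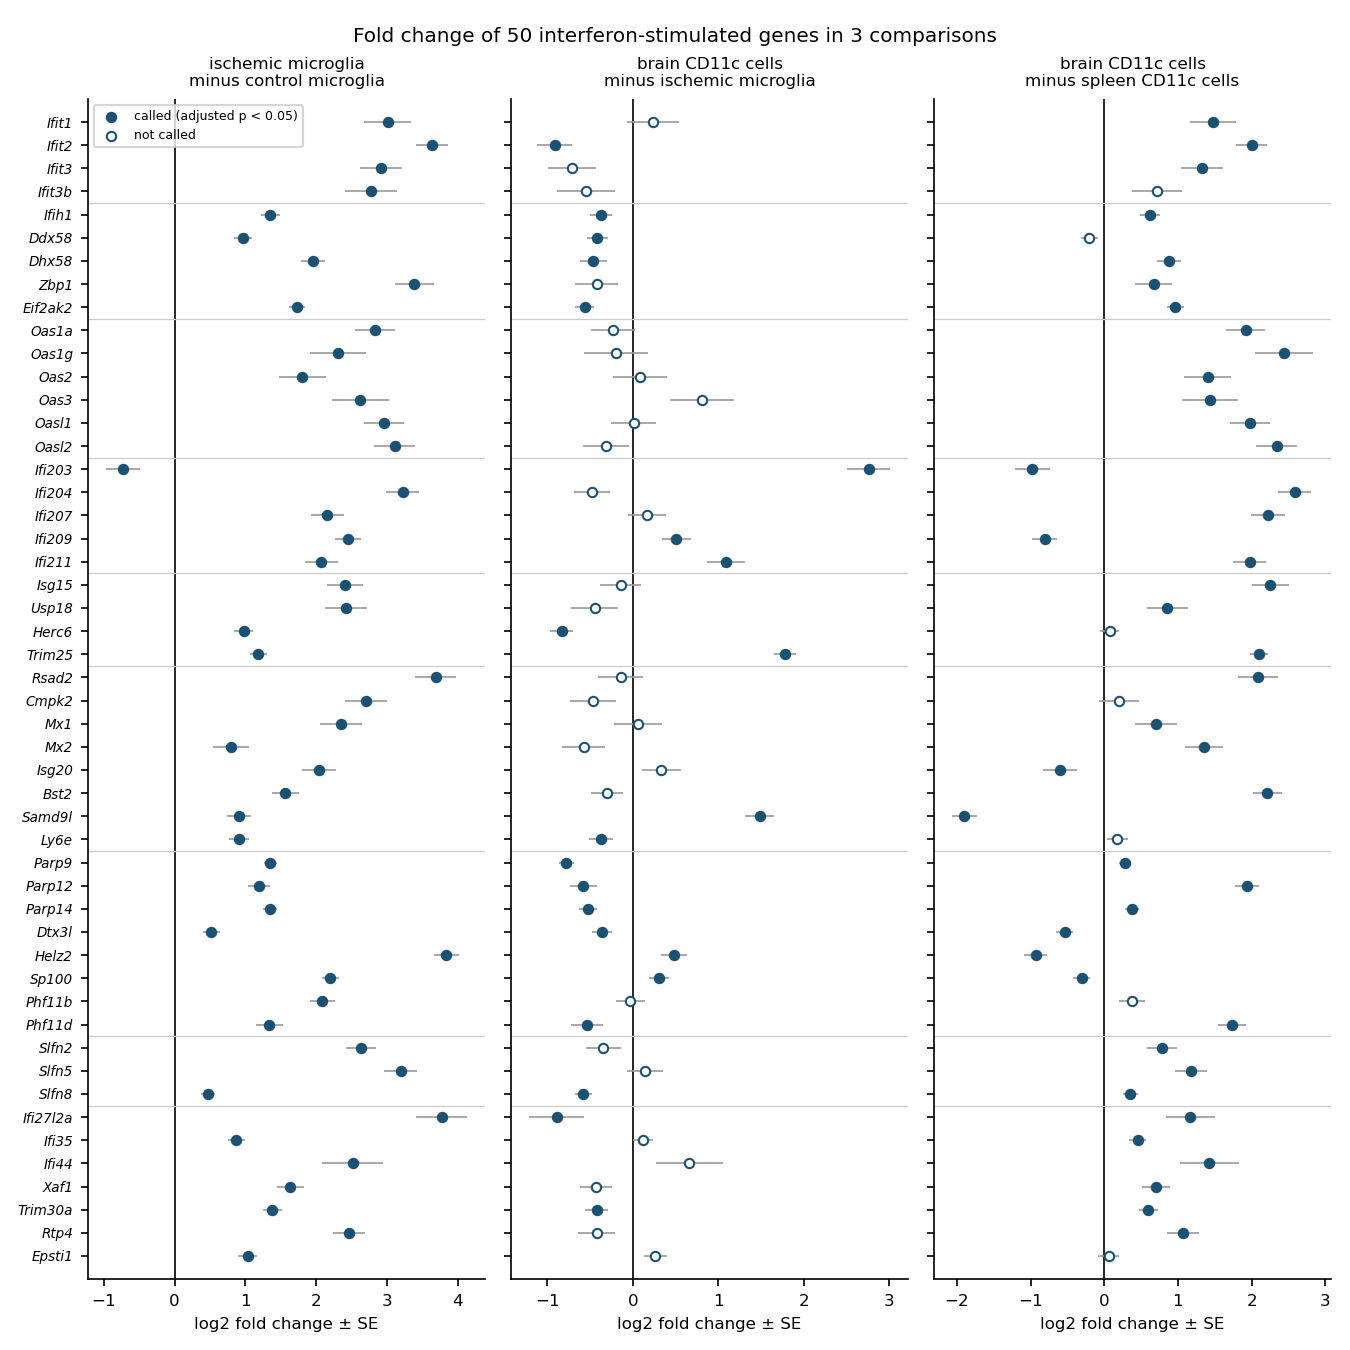
Log2 fold changes of the 50 genes (rows, ordered by role) in 3 comparisons, from left to right ischemic microglia minus control microglia, brain CD11c cells minus ischemic microglia and brain CD11c cells minus spleen CD11c cells, with bars of 1 SE and filled points for an edgeR adjusted p under 0.05. In ischemic against control microglia 49 points lie right of 0, while between brain CD11c cells and ischemic microglia the points lie around a median of -0.33.

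Brain CD11c cells were compared with ischemic microglia, 2 populations of the ischemic hemisphere. In brain CD11c cells 7 of the 50 were called higher, 15 were called lower and 28 were not called, and the largest lower difference, of Ifit2, was -0.92 log2 units. The median log2 difference was -0.33, against 0.00 over all genes, and 38.8% of all genes were called, 19.7% higher and 19.1% lower, 10.3% and 7.77% by 2-fold or more. The share of members called, 22 of 50, was near that of all genes. This comparison shares the ischemic microglia libraries with the one above, so the 2 sets of calls are not independent. Monocyte markers summed to 1563 to 6248 CPM in brain CD11c cells and 1276 to 2714 CPM in ischemic microglia, conventional dendritic cell markers to 5115 to 13390.0 CPM and 122 to 287 CPM, and their part in the result was not tested.

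Ifi203, Trim25 and Samd9l had the largest differences in favour of brain CD11c cells. Ifi203 had 52.7, 68.1, 85.7 and 83.2 CPM in brain CD11c cells, against 9.92, 6.83, 13.4 and 12.6 CPM in ischemic microglia. Trim25, the ligase that activates RIG-I, had 495, 606, 678 and 493 CPM in brain CD11c cells, against 156, 159, 162 and 185 CPM in ischemic microglia. Samd9l had 62.2, 67.2, 85.7 and 86.5 CPM in brain CD11c cells, against 24.1, 25.0, 29.5 and 29.0 CPM in ischemic microglia. In each of the 3 the lowest brain CD11c library lay above the highest microglia library. The log2 differences were 2.76 ± 0.25 for Ifi203, 1.78 ± 0.12 for Trim25 and 1.49 ± 0.17 for Samd9l (SE; edgeR adjusted p = 3.52e-07, 1.6e-08 and 3.19e-06). Ifi211 was higher by 1.09 log2 units, and these 4 calls held in all 16 alternatives. Ifi209, Helz2 and Sp100 were higher by 0.51, 0.48 and 0.31, calls that were lost in 5, 4 and 10 alternatives.

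Ifit2, Ifi27l2a and Herc6 had the largest differences in the other direction. Ifit2 had 78.7, 111, 72.6 and 117 CPM in brain CD11c cells, against 171, 175, 185 and 185 CPM in ischemic microglia, with every brain CD11c library below every microglia library (log2 difference -0.92 ± 0.20, SE; edgeR adjusted p = 0.00193). Herc6 had 28.6, 37.3, 34.0 and 27.8 CPM in brain CD11c cells, against 53.0, 50.3, 59.3 and 64.8 CPM in ischemic microglia, again without overlap (log2 difference -0.83 ± 0.13, SE; edgeR adjusted p = 0.00011). Herc6 shares 12.5% of its 50-base words, chiefly with Gm45193, which lies on the same strand and overlaps it by 1269 bases. Ifi27l2a had 185, 128, 111 and 189.6 CPM in brain CD11c cells, against 292, 174, 338 and 334 CPM in ischemic microglia. Its groups overlapped, and its call (log2 difference -0.89 ± 0.33, SE; edgeR adjusted p = 0.0403) was lost in 9 of the 16 alternatives.

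The other lower calls included Parp9 (-0.78), Slfn8 (-0.58), Eif2ak2 (-0.56) and Parp14 (-0.52 log2 units), which with Ifit2 and Herc6 held in all 16 alternatives. The 9 others were lost in 1 or more, among them the helicases Ddx58 (-0.41), Dhx58 (-0.46) and Ifih1 (-0.37), and Parp12 (-0.58), Phf11d (-0.54), Trim30a (-0.42), Ly6e (-0.37) and Dtx3l (-0.36). In 14 genes every brain CD11c library lay below every microglia library, and in 6 above (16.5% and 14.9% of all genes).

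By role, 4 of the 5 sensors were lower, the call of Eif2ak2 alone among them holding in all 16 alternatives. Of the 8 PARP, DTX3L and nuclear regulator genes 5 were lower and 2, Helz2 and Sp100, higher, and 3 of the 5 Ifi200 genes were higher, where 19.7% of all genes were higher and 19.1% lower. None of the 6 OAS genes was called by edgeR or DESeq2 and 1 by limma-voom, and 1 had an unadjusted edgeR p under 0.05, with log2 differences from -0.31 (Oasl2) to 0.81 (Oas3, edgeR adjusted p = 0.101). Isg15 had a log2 difference of -0.14 ± 0.24 (SE; adjusted p = 0.688), Rsad2 -0.14 ± 0.26 and Mx1 0.07 ± 0.28, none called. The others not called were Ifit1, Ifit3, Ifit3b, Zbp1, Ifi204, Ifi207, Usp18, Cmpk2, Mx2, Isg20, Bst2, Phf11b, Slfn2, Slfn5, Ifi35, Ifi44, Xaf1, Rtp4 and Epsti1.

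Calls and counts moved with single libraries. Leaving out ischemic microglia replicate 3 ended the lower calls of Ddx58, Dhx58, Dtx3l, Ifi27l2a, Ifih1, Ly6e, Phf11d and Trim30a, and leaving out ischemic replicate 4 ended those of Dhx58, Ifi27l2a, Ifih1, Ly6e, Phf11d and Trim30a. Leaving out brain CD11c replicate 3 ended those of Dhx58, Ifi27l2a, Ifih1, Ly6e and Phf11d, brain CD11c replicate 1 those of Dtx3l, Ifih1, Ly6e and Phf11d, and brain CD11c replicate 2 those of Ifi27l2a, Ifih1, Ly6e and Phf11d. Leaving out ischemic replicate 1 ended the lower calls of Ifi27l2a and Ly6e, and ischemic replicate 2 those of Dhx58 and Dtx3l. Leaving out ischemic replicate 1 or 2 also ended the higher calls of Helz2, Ifi209 and Sp100, brain CD11c replicate 3 those of Helz2 and Sp100, and brain CD11c replicate 2 or 4 that of Sp100. Over all alternatives the adjusted p of lost calls was 0.0511 to 0.211. Without ischemic microglia replicate 1 or 2 the genes called higher were 4 each time. Without ischemic microglia replicate 3 or 4 the genes called lower were 7 and 9, and without brain CD11c replicate 3 they were 10. With brain CD11c replicates 1 and 2 alone, 5 were higher and 12 lower, and with replicates 3 and 4 alone 5 were higher and 11 lower.

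**Figure D3:**
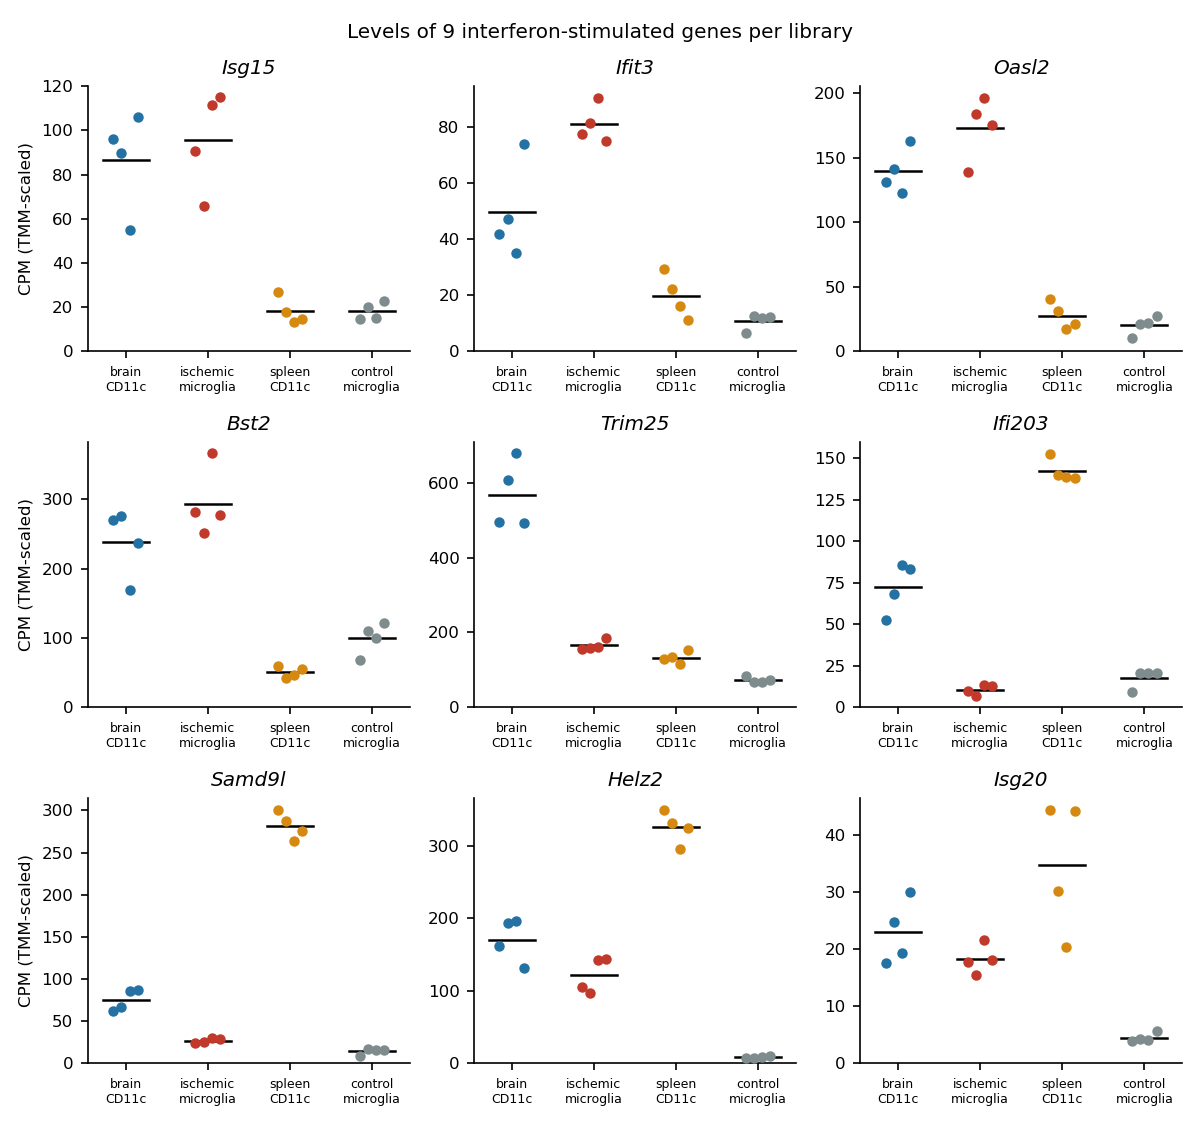
CPM in each of the 16 libraries for 9 genes, with groups from left to right as brain CD11c cells, ischemic microglia, spleen CD11c cells and control microglia; points are libraries and horizontal bars are group means. Isg15, Ifit3, Oasl2 and Bst2 have both groups of the ischemic hemisphere above spleen and control, Trim25 is highest in brain CD11c cells, and Ifi203, Samd9l, Helz2 and Isg20 have their highest mean in spleen.

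Brain CD11c cells were compared with spleen CD11c cells, the same reporter population in another organ. Of the 50 genes, 36 were higher, 23 of them by 2-fold or more, 7 were lower and 7 were not called, with a median log2 difference of 0.87 (1.82-fold) against -0.04 over all genes. In this comparison 64.2% of all genes were called, 31.2% higher and 33.0% lower, with 43 of the 50 members called. By 2-fold or more, 18.0% of all genes were higher and 20.1% lower. In 32 genes every brain library lay above every spleen library and in 6 below (25.3% and 29.9% of all genes). The 2 groups differed in makeup, with microglia markers at 12007 to 13344 CPM against 1140 to 1632 CPM and B cell markers at 45.0 to 64.4 CPM against 2743 to 3774 CPM. Neutrophil markers summed to 8.54 to 34.3 CPM against 251 to 977 CPM, and T cell markers to 1.32 to 11.0 CPM against 170.5 to 275.7 CPM. Natural killer cell markers summed to 0.728 to 4.14 CPM against 24.2 to 48.0 CPM. Plasmacytoid dendritic cell markers summed to 239.5 to 338 CPM against 821 to 962 CPM, with 1 of 9 called higher in brain and 6 lower. The part of makeup in the result was not tested. This comparison shares the brain CD11c libraries with the one before.

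All 6 OAS genes were higher in brain CD11c cells. Oas1g had 13.3, 10.7, 11.01 and 9.998 CPM in brain CD11c cells, against 4.18, 1.66, 1.196 and 1.30 CPM in spleen CD11c cells, with spleen replicate 1 the highest of its group and still below every brain library (log2 difference 2.44 ± 0.40, SE; edgeR adjusted p = 5.84e-05). Oasl2 had 131, 141, 122 and 162 CPM in brain CD11c cells, against 40.4, 31.6, 17.1 and 20.9 CPM in spleen CD11c cells (log2 difference 2.34 ± 0.28, SE; edgeR adjusted p = 2.78e-06), without overlap. The others were higher by 1.98 (Oasl1), 1.92 (Oas1a), 1.44 (Oas3) and 1.40 (Oas2) log2 units.

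In the Ifi200 family 3 genes were higher and 2 lower. Ifi204 had the largest difference of the 50 genes, with 204, 195, 124 and 133 CPM in brain CD11c cells, against 37.9, 23.9, 21.8 and 26.0 CPM in spleen CD11c cells (log2 difference 2.58 ± 0.22, SE; edgeR adjusted p = 4.88e-08). Ifi207 had 366, 417, 257 and 236 CPM in brain CD11c cells, against 96.3, 53.8, 55.2 and 68.0 CPM in spleen CD11c cells (log2 difference 2.22), and Ifi211 was higher by 1.97 log2 units. Every brain library lay above every spleen library in these 3. Ifi203 had 52.7, 68.1, 85.7 and 83.2 CPM in brain CD11c cells, against 152, 140.0, 139 and 138 CPM in spleen CD11c cells, with no overlap in the other direction (log2 difference -0.97 ± 0.23, SE; edgeR adjusted p = 0.00178), and Ifi209 was lower as well (log2 difference -0.81).

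Isg15 had 96.1, 89.7, 55.0 and 106 CPM in brain CD11c cells, against 26.7, 17.7, 13.4 and 14.8 CPM in spleen CD11c cells, without overlap (log2 difference 2.26 ± 0.26, SE; edgeR adjusted p = 1.41e-06). Trim25 was higher by 2.10 log2 units and Usp18 by 0.86, while Herc6 (0.07) was not called. Of the IFIT genes Ifit2, Ifit1 and Ifit3 were higher by 2.002, 1.48 and 1.33 log2 units, and Ifit3b (0.72; adjusted p = 0.0733 by edgeR) was not called. Of the sensors Eif2ak2, Dhx58, Zbp1 and Ifih1 were higher by 0.97, 0.88, 0.67 and 0.62 log2 units, and Ddx58 (-0.20) was not called. All 3 Schlafen genes were higher, Slfn5 by 1.18, Slfn2 by 0.78 and Slfn8 by 0.36.

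Other antiviral effectors and nuclear regulators went both ways. Bst2 was higher by 2.21, Rsad2 by 2.08, Mx2 by 1.35 and Mx1 by 0.70 log2 units. Samd9l had 62.2, 67.2, 85.7 and 86.5 CPM in brain CD11c cells, against 300.1, 287, 263 and 275 CPM in spleen CD11c cells. It was the only member lower by 2-fold or more, where 20.1% of all genes were (log2 difference -1.90 ± 0.17, SE; edgeR adjusted p = 6.45e-08). Helz2 had 162, 193, 196 and 132 CPM in brain CD11c cells, against 349, 332, 296 and 325 CPM in spleen CD11c cells (log2 difference -0.93 ± 0.15, SE; edgeR adjusted p = 6.19e-05). In both, every spleen library lay above every brain library. Isg20 (-0.60), Dtx3l (-0.54) and Sp100 (-0.30) were lower as well, the calls of Isg20 and Sp100 being lost in 6 alternatives each. Isg20 was not called without brain CD11c replicate 1 or 3 or spleen replicate 1 or 4, and Sp100 without brain CD11c replicate 3 or spleen replicate 1 or 2 (adjusted p 0.0504 to 0.111 over all alternatives that lost either call). Mx1 was not called without brain CD11c replicate 2 or 4 or spleen replicate 2, 3 or 4 (adjusted p 0.0559 to 0.265 over its 9 lost calls), and Zbp1, described above, without brain CD11c replicate 1, 2 or 4 or spleen replicate 3 or 4 (0.0549 to 0.269 over 7).

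Parp12 and Phf11d were higher by 1.94 and 1.73 log2 units, and Parp14 and Parp9 by 0.38 and 0.28. Of the remaining genes Ifi44, Ifi27l2a, Rtp4, Xaf1, Trim30a and Ifi35 were higher, by 1.43, 1.17, 1.07, 0.70, 0.60 and 0.45 log2 units. Cmpk2 (0.20), Ly6e (0.18), Phf11b (0.38) and Epsti1 (0.06) were not called.

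Without spleen replicate 1, the library with the highest levels, 37 genes were higher and 5 lower. With brain CD11c replicates 1 and 2 alone 34 were higher and 6 lower, and with replicates 3 and 4 alone 32 and 5. With library totals in place of TMM scaling 28 were higher and 8 lower, while the median over all genes moved by -0.27 log2 units.

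The comparison of ischemic with control microglia and that of brain with spleen CD11c cells share no library. The genes higher in both numbered 36, which is 73.5% of the 49 higher in ischemic microglia and every one of the 36 higher in brain CD11c cells. Since 49 of the 50 rose in the first comparison, the choice of members fixes most of that overlap. Of the 7 genes lower in brain than in spleen CD11c cells, Ifi209, Isg20, Samd9l, Dtx3l, Helz2 and Sp100 rose in ischemic microglia.

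Spleen CD11c cells were set against control microglia, the groups outside the ischemic brain as far as the labels say. Of the 50 genes 37 were higher, 5 lower and 8 not called, with a median log2 difference of 0.81 against 0.11 over all genes, and 68.8% of all genes were called, 37.1% higher and 31.7% lower. Helz2 was higher by 5.25, Samd9l by 4.30, Ifi209 by 3.76, Ifi203 by 3.003 and Isg20 by 2.97 log2 units. Parp12 (-1.32), Mx2 (-1.13), Bst2 (-0.95), Phf11d (-0.93) and Slfn8 (-0.46) were lower. Isg15 stood at 18.2 ± 5.98 CPM in spleen CD11c cells and 18.1 ± 3.99 CPM in control microglia (SD, n = 4 each), a log2 difference of 0.01 ± 0.25 (SE; edgeR adjusted p = 0.985). Oasl2 (0.45), Oas2 (0.49), Oas1g (-0.33), Ifi204 (0.16), Ifi207 (0.10), Eif2ak2 (0.20) and Herc6 (0.07) were not called either. Without spleen replicate 1 there were 31 higher and 6 lower, the calls of Ifih1, Ifit3, Ly6e, Oas1a, Trim30a and Xaf1 being lost, and without control replicate 1 those of Ly6e, Oas1a and Xaf1. The call of Ly6e was also lost without spleen replicate 2 or 4, and that of Xaf1 without spleen replicate 2 or control replicate 4. These groups differ in line, organ and cell type, which cannot be told apart.

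Ordered by mean CPM, ischemic microglia were highest in 31 of the 50 genes, brain CD11c cells in 12 and spleen CD11c cells in 7. In 12, 3 and 5 of these every library of the leading group lay above every library of the next, and in the others the libraries of the top pair overlapped. Control microglia were lowest in 43 genes, spleen CD11c cells in 6 and ischemic microglia in 1, Ifi203. The order ischemic microglia, brain CD11c cells, spleen CD11c cells, control microglia held in 24 genes, and the order with brain CD11c cells first and ischemic microglia next in 11. The groups were not ordered in this way over all genes, so these counts do not set the members apart from other genes. Trim25 stood at 568 ± 90.6 CPM in brain CD11c cells, 165 ± 13.6 CPM in ischemic microglia, 133 ± 14.8 CPM in spleen CD11c cells and 72.9 ± 7.54 CPM in control microglia (SD, n = 4 each). Epsti1 stood at 126 ± 22.1, 105 ± 11.99, 121 ± 21.03 and 51.2 ± 2.99 CPM in the same groups, and brain CD11c cells were not called apart from ischemic microglia or from spleen CD11c cells.

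**Figure D4:**
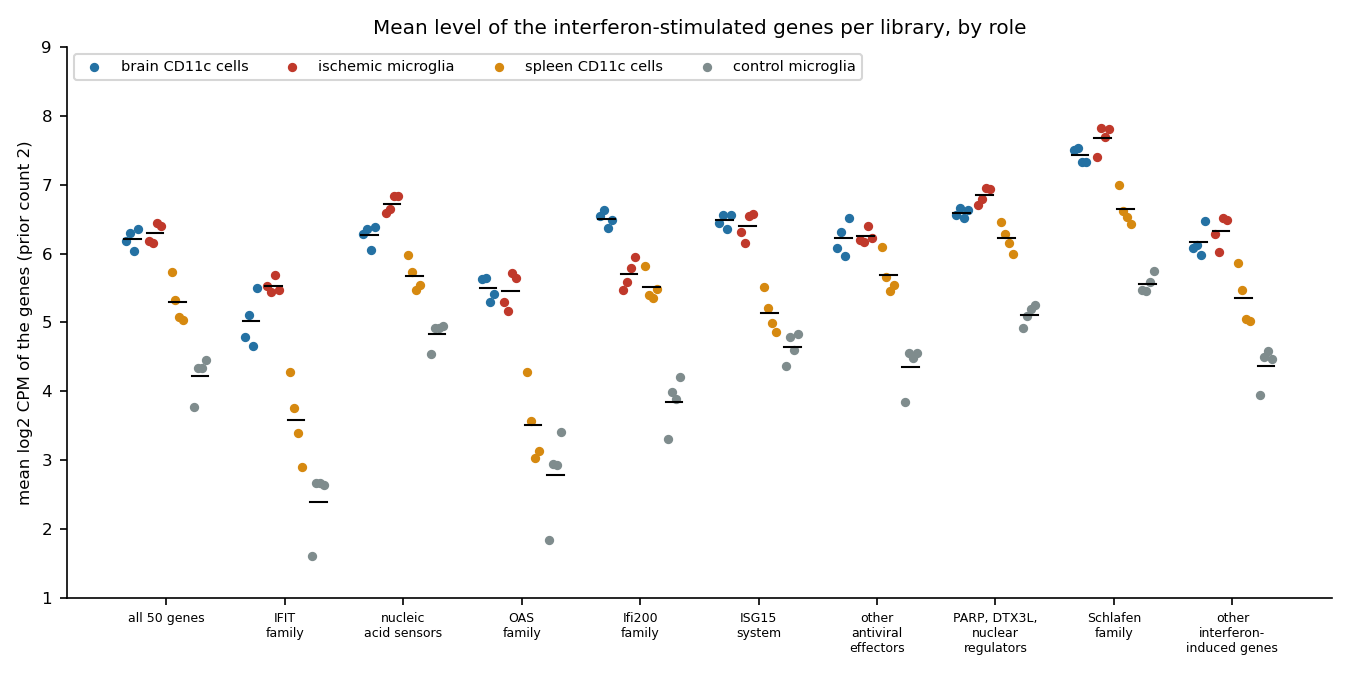
Mean log2 CPM in each library over the 50 genes (leftmost) and over each of the 9 role groups, with groups from left to right as brain CD11c cells, ischemic microglia, spleen CD11c cells and control microglia; points are libraries and bars are group means. Over all 50 genes both groups of the ischemic hemisphere lie between 6.03 and 6.44, spleen replicate 1 at 5.73 lies above the other spleen libraries, and control replicate 1 at 3.76 lies below the other control libraries.

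Averaged over the 50 genes, log2 CPM was 6.03 to 6.35 in brain CD11c cells, 6.16 to 6.44 in ischemic microglia, 5.03 to 5.73 in spleen CD11c cells and 3.76 to 4.46 in control microglia. Their summed level was 6276 to 7133 CPM, 7004 to 8316 CPM, 4293 to 5368 CPM and 2116 to 2874 CPM in the same groups. In control microglia replicate 1, 4 of the 50 genes lay above the group mean, and in spleen replicate 1 there were 49. The spread of single genes between libraries, as a median SD of log2 CPM, was 0.258 in brain CD11c cells against 0.357 over all genes, and 0.183 against 0.201 in ischemic microglia. It was 0.336 against 0.190 in spleen CD11c cells and 0.320 against 0.190 in control microglia, so the members varied more than the median gene in those groups. Oas3, Cmpk2 and Ifit3b varied most in control microglia, and Oas1g, Ifi44 and Ifit3b most in spleen CD11c cells. Without control replicate 1, 48 genes rose and 1 fell in ischemic against control microglia.

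Of the type I interferon genes themselves, only Ifnb1, which encodes interferon beta, had enough counts to be tested. Ifnb1 had 1.34, 0.504, 0.498 and 0.791 CPM in brain CD11c cells, 3.93, 2.98, 2.30 and 11.1 CPM in ischemic microglia, no count in spleen CD11c cells and 0.525, 0.307, 0.35 and 0.231 CPM in control microglia. Ischemic replicate 4 was the highest library, and every ischemic library lay above every library of the other groups. Ifnb1 was higher in ischemic than in control microglia, with a log2 difference of 3.82 ± 0.56 (SE; edgeR adjusted p = 0.000193), or 3.09 without ischemic replicate 4. It was lower in brain CD11c cells than in ischemic microglia (-2.69 ± 0.53, SE; edgeR adjusted p = 0.00112), or -1.95 without that library. Against the level that 3 counts over the 4 spleen libraries would give, it was at least 46.7-fold higher in brain CD11c cells. Of the 18 type I interferon genes, 13 had no count in any library. The others were at or near that floor, with 4 counts of Ifna2 in ischemic microglia and 7 of Ifnz in ischemic and 6 in control microglia, summed over 4 libraries. Ifng, the type II interferon, had 56 counts in spleen CD11c cells and at most 6 in any other group, and Ifnl2, a type III interferon, had 12 counts in brain CD11c cells and none elsewhere.

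**Figure D5:**
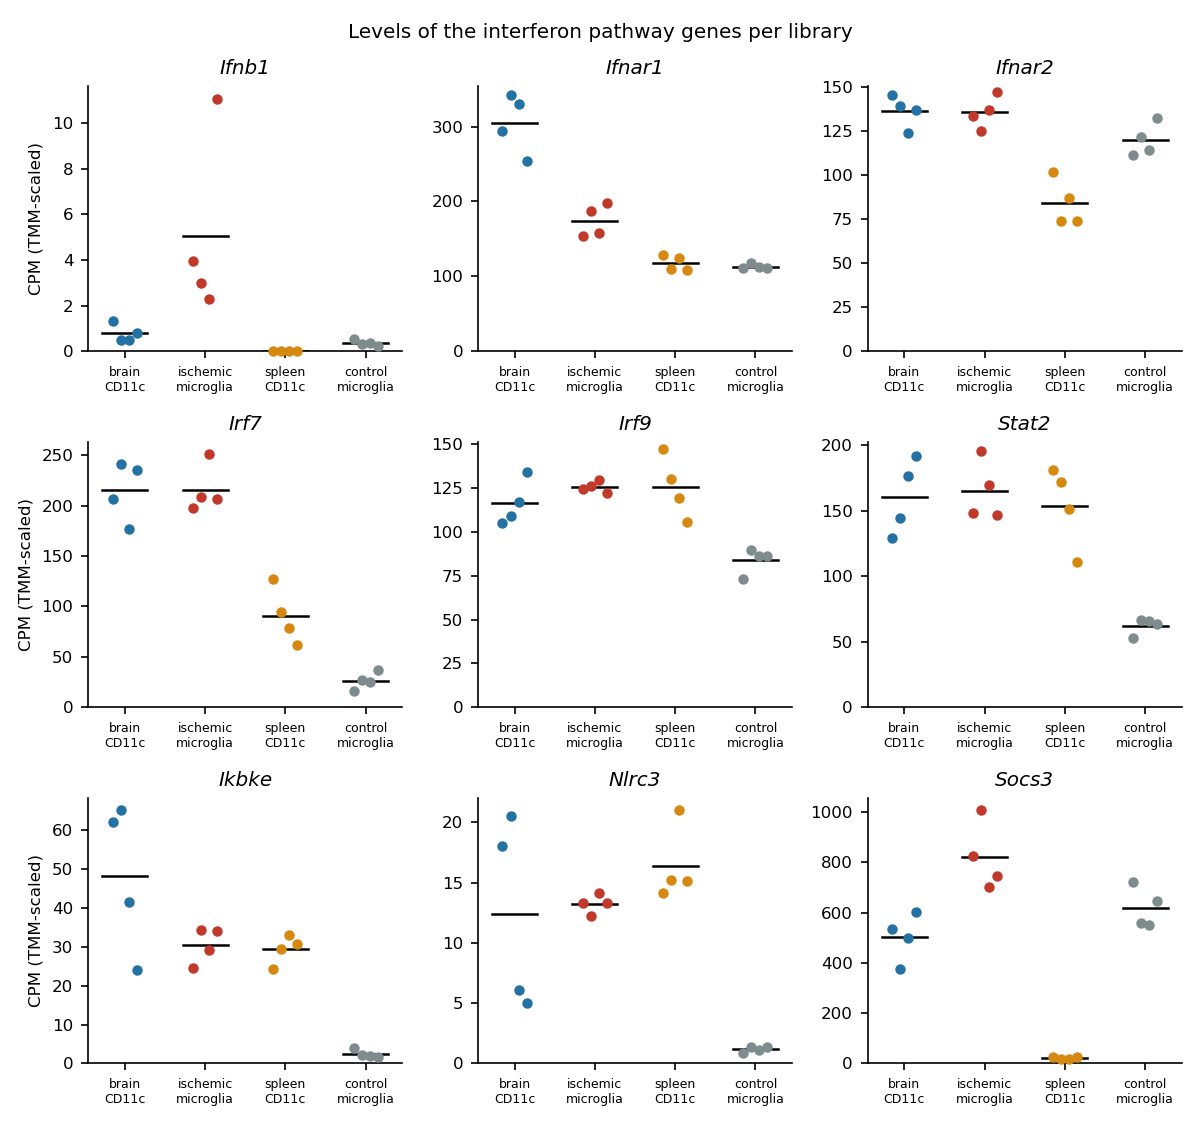
CPM in each of the 16 libraries for Ifnb1, the receptor subunits Ifnar1 and Ifnar2, the transcription factors Irf7, Irf9 and Stat2, the kinase Ikbke and the inhibitors Nlrc3 and Socs3, with groups from left to right as brain CD11c cells, ischemic microglia, spleen CD11c cells and control microglia; points are libraries and horizontal bars are group means. Ifnb1 is highest in ischemic microglia, Ifnar1 in brain CD11c cells, and Socs3 is lowest in spleen.

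Of 6 interferon receptor genes, 2 rose and 1 fell in ischemic against control microglia, where 17.7% of all genes were higher and 18.0% lower, namely Ifnar1 (0.62) and Ifngr2 (0.50) against Ifngr1 (-0.52 log2 units). The call of Ifngr1 was lost without control replicate 2 or 3 or ischemic replicate 1, 3 or 4 (edgeR adjusted p 0.0609 to 0.0686). Ifnar1, a subunit that type I interferons bind, stood at 305 ± 39.9 CPM in brain CD11c cells, 174 ± 21.4 CPM in ischemic microglia, 118 ± 10.3 CPM in spleen CD11c cells and 113 ± 3.35 CPM in control microglia (SD, n = 4 each). In brain CD11c cells it was higher than in ischemic microglia by 0.81 and than in spleen CD11c cells by 1.37 log2 units (edgeR adjusted p = 2.07e-05 and 2.03e-08). Ifnar2 was higher in brain than in spleen CD11c cells by 0.70 log2 units and was not called in ischemic against control microglia (0.18). Il10rb (0.13) and Ifnlr1, which was at 0.0587 and 0.0847 CPM in the microglia groups, were not called there either. Higher in brain CD11c cells than in ischemic microglia were 3 of the 6, Ifnar1, Ifngr1 and Ifnlr1, and 0 were lower. Over all genes 19.7% were higher and 19.1% lower. The call of Ifngr1 was lost with brain CD11c replicates 1 and 2 alone (edgeR adjusted p = 0.28). Against spleen CD11c cells 5 were higher, all but Ifnlr1, and 0 lower, where 31.2% of all genes were higher and 33.0% lower.

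Of 10 receptor kinase and transcription factor genes, 3 rose and 1 fell in ischemic against control microglia, a share called near the 35.7% of all genes. Irf7, which amplifies interferon production, stood at 216 ± 24.0 CPM in ischemic microglia and 26.3 ± 8.86 CPM in control microglia (SD, n = 4 each; log2 difference 3.04 ± 0.25, SE; edgeR adjusted p = 3.65e-07). Stat2 rose by 1.40 and Irf9 by 0.58 log2 units, both parts of the factor that binds response elements. Irf3, which is activated after nucleic acid sensing, fell by 0.58 log2 units. Irf7 was higher in brain than in spleen CD11c cells by 1.25 and was not called in brain CD11c cells against ischemic microglia (-0.01 ± 0.23, SE). Of the 10, 1 was higher in brain CD11c cells than in ischemic microglia and 2 were lower. Over all genes 19.7% were higher and 19.1% lower. Jak2, the kinase of other cytokine receptors including that for interferon gamma, was the higher gene, by 1.88 log2 units. The lower genes were Irf1 (-1.37 to -0.85 log2 units with 1 library left out) and Irf8 (-0.73 to -0.53). The call of Irf1 was lost with brain CD11c replicates 3 and 4 alone (edgeR adjusted p = 0.0605).

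Of 14 genes of the sensing pathway upstream of interferon, 6 rose and 2 fell in ischemic against control microglia, where 17.7% of all genes were higher and 18.0% lower. Of the 6, Tlr7 was not called with library totals or without control replicate 3 or 4 or ischemic replicate 2 or 4 (edgeR adjusted p 0.0558 to 0.0824), and Myd88 not with library totals (0.0526). Ikbke, a kinase that activates interferon regulatory factors, stood at 30.6 ± 4.67 CPM in ischemic microglia and 2.43 ± 0.972 CPM in control microglia (SD, n = 4 each; log2 difference 3.65). The adaptor Ticam1 rose by 0.90 log2 units, while Tlr4 and Tmem173 (STING) fell by 0.93 and 0.55. In brain CD11c cells 1 was higher and 9 lower than in ischemic microglia, where 19.7% of all genes were higher and 19.1% lower, with the RNA receptor Tlr7 at -1.27, the DNA receptor Tlr9 at -1.02 and Tlr3 at -0.999 log2 units. The higher call, Traf6, was lost in 6 of 16 alternatives, among them those without ischemic replicate 1 or 3 or brain CD11c replicate 2 (edgeR adjusted p 0.0507 to 0.148). The lower call of Tlr4 was lost in 9, among them those without any 1 ischemic library or brain CD11c replicate 3 or 4 (0.0541 to 0.318), and that of Cgas with library totals (0.0674). In brain against spleen CD11c cells 10 were higher and 3 lower, where 31.2% of all genes were higher and 33.0% lower, among them the DNA sensor Cgas (1.40), Tlr7 (1.04) and Tmem173 (0.90 log2 units). The calls of Ikbke and Tlr4 were lost in 6 alternatives each, Ikbke without brain CD11c replicate 1 or 2 or spleen replicate 1 or 2 (edgeR adjusted p 0.0562 to 0.711) and Tlr4 without brain CD11c replicate 3 or spleen replicate 1 or 4 (0.0562 to 0.238), and those of Tbk1, Tlr3 and Unc93b1 with library totals.

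Of 9 tested genes that restrain interferon signalling or the nucleic acids that trigger it, 3 rose and 2 fell in ischemic against control microglia, where 35.7% of all genes were called. Nlrc3, an inhibitor of STING signalling, rose by 3.50, the RNA editor Adar by 0.97 and Rnaseh2b, part of an RNA-removing nuclease, by 0.94 log2 units. Socs1, an inhibitor of the receptor kinases, and Pias1, an inhibitor of STAT signalling, fell by 1.40 and 0.31, the call of Pias1 being lost without a filter on low counts (adjusted p = 0.0838). Trex1 was listed with no count in any library, and whether this came from expression or from the authors' counting was not tested. In brain against spleen CD11c cells 2 of the 9 were higher and 4 lower, where 31.2% of all genes were higher and 33.0% lower. The higher calls were Socs3 and Ptpn2, and the lower ones Samhd1, Ptpn6, Pias1 and Adar. Calls were lost in 11 of 16 alternatives for Ptpn2, in 7 for Adar and in 1 for Pias1. Socs3, an inhibitor induced by STAT3, stood at 503 ± 94.2 CPM in brain CD11c cells and 20.8 ± 4.68 CPM in spleen CD11c cells (SD, n = 4 each; log2 difference 4.59 ± 0.20, SE; edgeR adjusted p = 1.29e-11).

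A list of 14 genes associated with interferon gamma, which type I interferon also induces in part, was set beside the members. In ischemic against control microglia 8 rose and 2 fell, with a median log2 difference of 0.86, where 17.7% of all genes were higher and 18.0% lower. Of the 8, Gbp4 was not called with library totals, by limma-voom or without ischemic replicate 4 (adjusted p 0.0521 to 0.0654). In brain CD11c cells 2 were higher and 9 lower than in ischemic microglia, with a median of -0.76, where 19.7% of all genes were higher and 19.1% lower. Of the 2 higher calls, that of Ido1 was lost in 11 of 16 alternatives, among them those without any 1 ischemic library or brain CD11c replicate 1, 2 or 3 (adjusted p 0.0577 to 0.132). Of the 9 lower calls, that of Gbp6 was lost without ischemic replicate 3 or 4 and on only the 2 groups (0.0521 to 0.0656). Against spleen CD11c cells 11 were lower and none higher, with a median of -1.10, where 31.2% of all genes were higher and 33.0% lower, and none was higher by DESeq2, by limma-voom or at an unadjusted edgeR p under 0.05 (0 each). Of these 11, the call of Gbp6 was lost without spleen replicate 2 and on only the 2 groups (0.0533 to 0.0546) and that of Cxcl9 with brain CD11c replicates 3 and 4 alone (0.106). The guanylate-binding protein genes Gbp2 and Gbp6 rose by 2.19 and 2.21 and the class I transactivator Nlrc5 by 2.14 log2 units in ischemic microglia, and the class II transactivator Ciita fell by 2.24. In brain against spleen CD11c cells the lowest log2 differences were those of Gbp4 (-4.28), Ido1 (-2.84) and Iigp1, an antiparasitic GTPase (-2.21). The difference between this list and the 50 genes was not tested.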

How the data were processed

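Counts per gene are whole numbers as deposited by the authors, 1 column per library, and 0 columns were left unused. Per the submitters' processing notes, FastQC 0.11.5 and STAR 2.5.3a with GRCm38 were used, and the labels' protocols give a stranded kit for polyadenylated RNA with 2.4 to 147 ng of input. For the counting program, its strand setting and the annotation release, the sources used here give nothing. Of 50600 genes 50376 were named from GENCODE release M21 or a name table.

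The test was edgeR 4.0.16 (quasi-likelihood F test with robust estimation, R 4.3.3) on all 16 libraries with TMM scaling, genes kept by filterByExpr, Benjamini-Hochberg adjustment over 16345 genes and a two-sided threshold of 0.05. It was tried on simulated data for ischemic against control microglia only, with few genes changed and only in ischemic microglia. In the data 35.7% to 68.8% of genes were called by comparison, a setting that the simulation did not cover. CPM values are scaled by TMM, and log2 CPM use a prior count of 2. Alternatives were DESeq2 1.42.0 and its size factors, limma-voom (limma 3.58.1), library totals, no filter, only the groups compared, libraries left out, and brain CD11c replicates by title style.

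Members and lists were chosen with earlier results of these data known. Every member may be named. Values per library are given for the 3 called members with the largest change in each direction of the first 3 comparisons and the most abundant member overall and per role, with Isg15 added with its values known. Other lists give fold changes for up to 3 called genes per direction, with receptors and ligands in full. Further genes of these lists are named where a call was lost in an alternative or where the calls of a list are given in full. A gene of these lists is not reported here.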

Additional observations from a re-analysis of the deposited data

Results flagged for a closer look

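In 11 of 204 sets of 4 libraries (5.39%), 1 library lay far from the other 3 of its group, and chance gives about 1 in 20. Control microglia replicate 1 was low for Ifit3 (6.40 CPM against 11.8 to 12.7 in the others), Oas2 (11.4 against 28.2 to 29.7), Ifi203 (9.40 against 20.4 to 20.6) and Ly6e (833 against 1206 to 1280.0 CPM). Control microglia replicate 4 was high for Isg20 (5.60 against 3.92 to 4.17 CPM). Spleen CD11c replicate 1 was high for Ifih1 (66.3 against 44.3 to 48.0 CPM), Oas1g (4.18 against 1.196 to 1.66) and Ifi203 (152 against 138 to 140.0 CPM). Brain CD11c replicate 4 was high for Ifih1 (93.5 against 71.0 to 74.5 CPM) and Xaf1 (54.8 against 33.5 to 36.3) and low for Parp9 (89.1 against 99.6 to 100.3 CPM).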

How the results depend on the processing

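No called member changed direction in any alternative, and no called member's fold change moved by more than 1.5-fold. In the other lists, called fold changes of Ifnb1, Ifnlr1, Ciita, Ido1, Tlr4, Ikbke and Cxcl9 moved by more than that. Ifnb1 in brain against spleen CD11c cells moved from 7.95 to 6.02 log2 units by limma-voom. Ifnlr1 in brain CD11c cells against ischemic microglia moved from 5.70 to 3.91 with brain CD11c replicates 1 and 2 alone. In ischemic against control microglia 48 to 49 genes were higher in every alternative and 48 of those calls held in all 14. The single lower call, Ifi203, became 0 without a filter, by limma-voom and on only the 2 groups, and was 0 to 1 with a library left out. In brain CD11c cells against ischemic microglia, library totals gave 7 lower calls in place of 15, and leaving out a library gave 4 to 8 higher and 7 to 18 lower calls. In brain against spleen CD11c cells 26 of 36 higher and 5 of 7 lower calls held in all 16 alternatives, and in spleen CD11c cells against control microglia 30 of 37 and 4 of 5 in all 14. Library totals moved the median over all genes by -0.15 in ischemic against control microglia, 0.10 in brain CD11c cells against ischemic microglia, -0.27 in brain against spleen CD11c cells and 0.23 in spleen CD11c cells against control microglia. Of all calls 33.5%, 62.4%, 34.9% and 63.9% were then higher, in place of 49.5%, 50.7%, 48.6% and 53.9%. The cause of these shifts was not tested. Members not called changed sign in 25 of 448, 11 of 112 and 13 of 112 fits of the last 3 comparisons, never with a call. No paired analysis was possible because the groups compared share at most 1 number in their titles, the number 11 of brain CD11c replicate 1, which spleen replicate 4 and ischemic microglia replicate 1 also carry. Of the 18 type I interferon genes 13 had no count in any library, where low depth and lack of expression cannot be told apart.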
